A study of Mus musculus with 6 samples.

Results

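Of the 26264 genes in the table of normalized counts, 10 are described here: *AW112010*, *Gm5431*, *Gm12216*, *A930033H14Rik*, *AI504432*, *9530082P21Rik*, *A530040E14Rik*, *Panct2*, *1700003E16Rik* and *1810073O08Rik*. They are noncoding or little-characterised transcripts and were chosen by their measured difference between *Irf1-/-* and WT hematopoietic stem cells (HSCs), so their values in this contrast are a description, are given without *P* values, and support nothing further. Which of them met the rule for a call, and in which fits, is given as part of that description. The label "noncoding" holds for 7 of the 10, which the RefSeq gene table of assembly GRCm38.p6 lists as long noncoding RNAs (lncRNAs). The other 3, *A930033H14Rik*, *Gm5431* and *1700003E16Rik*, are listed there as protein coding.

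Bulk RNA sequencing (RNA-seq) was performed on untreated HSCs sorted from bone marrow of 8-week-old female mice, 3 WT (C57Bl/6) and 3 *Irf1-/-* (B6.129S2-Irf1 tm1Mak/J), with 1 library per mouse. Every cell of the knockout mouse lacks the factor, so an effect that arises inside the HSC and one that reaches it from other cells cannot be told apart. The targeted allele was made in 129-derived cells and brought into the B6 background, so for genes close to *Irf1* the loss of the factor and flanking 129-derived sequence cannot be told apart. The libraries are named by the replicate numbers 2, 3 and 4 of the labels. Reads on genes numbered 43138521, 57281017 and 45129929 in *Irf1-/-* replicates 2, 3 and 4, and 59658080, 45332573 and 43267486 in WT replicates 2, 3 and 4. The cDNA was amplified without molecular identifiers, so reads are not independent molecules. In these bulk samples, fewer cells that express a transcript and less of its RNA per cell cannot be told apart.

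IRF1 is a transcription factor that is induced by interferons and binds DNA elements in which GAAA repeats are spaced by 2 bases. Genes under its control include GTPases of the immunity-related (IRG) and guanylate-binding (GBP) families, components of antigen presentation, and a number of transcripts that have kept a provisional name. A lncRNA is a transcript without a long reading frame. Some lncRNAs act on the gene beside them, some act elsewhere, and some are by-products of transcription at a promoter or enhancer, so the genes that lie next to a lncRNA are part of its description.

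The normalized count of the targeted gene, *Irf1*, was 9267, 9524 and 9287 in the *Irf1-/-* libraries and 10122, 11120 and 12057 in the WT libraries. All 3 *Irf1-/-* libraries lay below all 3 WT libraries, but the mean of *Irf1-/-* was still 84.3% of that of WT (log2 fold change −0.24, adjusted *P* = 0.170, limma). A count over the whole gene does not show which part of the transcript the reads came from, so it neither bears out nor contradicts the genotype labels.

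WT replicate 4 stood apart from the other libraries in markers of neutrophils. The summed normalized count of the 8 neutrophil markers was 7875 in WT replicate 4, against 402 and 362 in WT replicates 2 and 3 and 529, 539 and 930 in *Irf1-/-* replicates 2, 3 and 4. *Ngp*, the most abundant of these markers in WT replicate 4, was at 2535 there and between 24.8 and 127 in the other 5 libraries, where *Mpo* was the most abundant (227 to 355), and *Ly6g* was at 46.3 in WT replicate 4, at 1.07 in *Irf1-/-* replicate 2 and at 0 in the other 4. Of the 7 neutrophil markers tested, 0 were called between genotypes in limma, edgeR or DESeq2, and 0 had an unadjusted *P* below 0.05 in limma. The fold changes of the 10 transcripts are therefore given with and without this library.

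The HSC markers were present in every library, with summed normalized counts between 189345 and 226179, led by *Kit*. Of these 10 markers 1 was called (limma adjusted *P* below 0.05 and absolute log2 fold change above 0.58, met by 1.91% of all tested genes, the background for each list of markers), *Fgd5*, which was higher in *Irf1-/-* HSCs (log2 fold change 0.83, adjusted *P* = 9.13e-05). *Procr* (0.52, adjusted *P* = 0.0112) and *Ly6a* (−0.43, adjusted *P* = 0.0245) were short of the size required for a call. In limma 7 of the 10 had an unadjusted *P* below 0.05, against 16.5% of all tested genes. Among the 7 megakaryocyte markers tested, 3 were called, all lower: *Pf4* (−1.11), *Gp1bb* (−0.90) and *Gp1ba* (−0.69). The summed count of the 8 markers of that list was 52634, 34809 and 47435 in *Irf1-/-* libraries and 60383, 73758 and 58422 in WT libraries, its most abundant gene was *Itga2b*, and none of its genes was at 0 in all libraries. Of the erythroid list 1 of 4 tested genes was called (*Klf1*, −0.72), with *Epor* the most abundant. The globin genes *Hba-a1*, *Hba-a2*, *Hbb-bs* and *Hbb-bt* were listed at 0 in all libraries. The annotation used in counting is not given, and reads of near-identical copies cannot be told apart. These values of 0 therefore do not show that globin RNA was absent. Of the dendritic cell list 1 of 8 was called (*Flt3*, 0.67), its most abundant gene. The other 7 dendritic cell markers had negative log2 fold changes, and the median of the 8 was −0.51. The summed count of the erythroid list was 2959, 2438 and 2786 in *Irf1-/-* libraries and 3755, 4315 and 3064 in WT libraries, and that of the dendritic cell list, most of which was *Flt3*, was 3815, 4763 and 3711 against 3023, 2075 and 3384. The call on *Gp1ba* was lost without *Irf1-/-* replicate 2, *Irf1-/-* replicate 3 or WT replicate 3, that on *Klf1* without these or WT replicate 2, and that on *Flt3* without any 1 of the *Irf1-/-* libraries or WT replicate 3. None of the 6 B cell, 4 T cell, 5 NK cell and 8 monocyte and macrophage markers tested was called in limma, where 0, 0, 1 and 1 had an unadjusted *P* below 0.05. edgeR called none of them, and DESeq2 called 1, of the monocyte and macrophage list. The part of these shifts in the values of the 10 transcripts was not tested.

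Genes were called between genotypes at a limma adjusted *P* below 0.05 and an absolute log2 fold change above 0.58, on log2(normalized count + 1), among 17404 genes that averaged 10 or more normalized counts over the libraries. In *Irf1-/-* HSCs 167 genes (0.96%) were higher and 166 (0.954%) lower by this rule, 333 in all (1.91%). The total was 569 without WT replicate 4, 207 without WT replicate 3 and 204 without *Irf1-/-* replicate 4, and it was 40 when limma was run without its intensity trend and 510 in DESeq2. All 10 transcripts passed the filter. Of these, 8 met the rule, 5 as lower and 3 as higher, and *A530040E14Rik* and *AI504432* did not. In all 10 the 3 libraries of one genotype did not overlap the 3 of the other, which was so for 3467 of all tested genes (19.9%). Because the transcripts were picked from this contrast, nothing is read from these counts.

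*AW112010* had the largest difference among the 10. It is a transcript induced by interferons and bacterial products in immune cells, annotated as noncoding although a protein made from it has been described in macrophages. Its normalized count was 466, 534 and 589 in the *Irf1-/-* libraries and 4097, 3883 and 4505 in the WT libraries. The lowest WT library was thus 6.60 times the highest *Irf1-/-* library, and the spread within a genotype was small against that distance, with means of 530 ± 61.5 and 4162 ± 316 (SD, n = 3 each). This gave a log2 fold change of −2.98 (SE 0.12), and of −2.92 without WT replicate 4. It rested on 437 to 4979 reads per library, the deepest counts among the transcripts that were lower.

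*Gm5431* encodes a member of the IRG family, GTPases that interferons induce and that act at the membranes around intracellular pathogens. Its normalized count was 22.4, 55.3 and 34.3 in *Irf1-/-* libraries and 137, 159 and 145 in WT libraries. Replicate 3 was the highest library in both genotypes. The WT libraries were close together (coefficient of variation 7.38%) and the *Irf1-/-* libraries were spread more widely (44.7%), without reaching the WT range. As a log2 fold change this was −2.04 (SE 0.39), and −2.05 without WT replicate 4. With WT replicate 3 left out, *Gm5431* no longer met the rule. IRG genes of this stretch are similar in sequence, and reads of near-identical copies cannot be told apart. *Gm5431* lies on chromosome 11, as does *Irf1*. How far the flanking sequence of the targeted allele reaches is not known here, and its part in these values was not tested.

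*Gm12216* is a lncRNA and the next gene to *Irf1* in the gene order of the RefSeq table. Normalized counts of it were 332, 328 and 405 in the *Irf1-/-* libraries and 695, 726 and 833 in the WT libraries. The replicate 4 libraries were the highest of their genotype, and the mean in *Irf1-/-* HSCs was 47.2% of that in WT HSCs. The log2 fold change was −1.08 (SE 0.16), and −1.01 without WT replicate 4. *Irf1* itself was at 84.3% of WT, and *Slc22a5*, the carnitine transporter gene on the other side of *Gm12216*, did not pass the test (log2 fold change −0.02, adjusted *P* = 0.967). A stretch of 20 tested genes to either side of *Irf1* was also read, chosen after the values were seen, and 2 of its 39 genes other than *Gm12216* were called (5.13%, against 1.91% of all tested genes), *Lyrm7* as lower (−1.30) and *Gm2a* as higher (0.58), of which *Gm2a* was lost without *Irf1-/-* replicate 3, WT replicate 3 or WT replicate 4. Of the 19 among the 10 nearest on each side, 0 were called in limma, edgeR or DESeq2, and 3 had an unadjusted *P* below 0.05 in limma, close to the share of all tested genes (16.5%).

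*A930033H14Rik* is listed as protein coding and overlaps *Rhobtb1* on the opposite strand. In normalized counts it stood at 30.9, 37.2 and 42.6 in the *Irf1-/-* libraries and 137, 114 and 179 in the WT libraries. WT replicate 4 was the highest library, and without it the log2 fold change was −1.75, against −1.92 (SE 0.35) over all libraries. *Rhobtb1* was not used to choose the 10 transcripts and was called lower as well. Its normalized count was 650, 767 and 630 in the *Irf1-/-* libraries and 1424, 1521 and 1717 in the WT libraries (log2 fold change −1.19 with an SE of 0.13 and a limma adjusted *P* of 0.00016). This call held with each library left out in turn and was lost when limma was run without its intensity trend (adjusted *P* = 0.0511). Whether strand was used in counting is not given, so in the stretch that *A930033H14Rik* and *Rhobtb1* share their reads cannot be told apart, and the same holds for the other overlapping pairs below. Of the nearest tested genes on its 2 sides, *Tmem26* (0.66, adjusted *P* = 0.543) did not pass, and *Cdk1*, the mitotic kinase gene, had an adjusted *P* of 0.0392 with a log2 fold change of −0.50, short of the size the rule asks for.

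*AI504432* is a lncRNA that lies between *Kcna3* and *Kcna2*, genes for voltage-gated potassium channels. Its normalized count was 91.7, 66.5 and 87.2 in the *Irf1-/-* libraries and 170, 179 and 156 in the WT libraries. No *Irf1-/-* library reached the lowest WT library. The log2 fold change was −1.04 (SE 0.28), and −1.10 without WT replicate 4. Of the alternative fits, only DESeq2 and quantile normalization called *AI504432*. *Kcna3* was called lower, at 2409, 1684 and 1776 in the *Irf1-/-* libraries against 2979, 3430 and 3212 in the WT libraries (log2 fold change −0.73, SE 0.13, adjusted *P* = 0.0072, limma). This call held with each library left out and was lost without the intensity trend (adjusted *P* = 0.230). *Kcna2*, on the other side, was measured at 60.5 to 162 in the *Irf1-/-* libraries and 49.6 to 65.8 in the WT libraries, which overlapped (log2 fold change 0.86, adjusted *P* = 0.302).

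*9530082P21Rik* is a lncRNA that overlaps *Flywch1*, a zinc finger gene, on the opposite strand. The normalized count was 166, 124 and 156 in the *Irf1-/-* libraries and 310.2, 353 and 372 in the WT libraries. All *Irf1-/-* libraries were thus below all WT libraries, and the log2 fold change was −1.22 (SE 0.22), or −1.16 without WT replicate 4. *Flywch1* had means of 4425 ± 117 and 4424 ± 271 (SD, n = 3 each), with a log2 fold change of 0.00 and overlapping libraries. *Kremen2* (−1.0, adjusted *P* = 0.517) and *Flywch2* (0.26, adjusted *P* = 0.42), on its 2 sides, did not pass the test.

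*A530040E14Rik*, a lncRNA that overlaps *A530032D15Rik* on the opposite strand, had a normalized count of 58.6, 53.6 and 56.1 in the *Irf1-/-* libraries and of 151, 157 and 103 in the WT libraries. The *Irf1-/-* libraries were nearly alike, and WT replicate 4 was the lowest WT library. With that library the log2 fold change was −1.25 (SE 0.33), and without it −1.44, which then met the rule for a call. With all libraries, *A530040E14Rik* was also called in DESeq2, with quantile normalization and with a replicate block. *A530032D15Rik* was at 100.2, 61.4 and 126 in the *Irf1-/-* libraries and at 195, 129.6 and 128 in the WT libraries, a difference that did not pass the test (log2 fold change −0.68, adjusted *P* = 0.335). Neither did *Fbxo36* (−0.07, adjusted *P* = 0.953) nor *Gm38510* (0.05, adjusted *P* = 0.987), the nearest tested genes on its sides.

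Of the 10 transcripts 3 were higher in *Irf1-/-* HSCs. *Panct2*, first described as a pluripotency-associated noncoding transcript, had a normalized count of 78.9, 81.2 and 91.4 in the *Irf1-/-* libraries and of 25.5, 15.8 and 17.2 in the WT libraries. The WT libraries held as few as 14 reads of it, and the SE of its fold change was the largest of the 10. The log2 fold change was 2.08 (SE 0.44), 2.01 without WT replicate 4, and 1.68 with a pseudocount of 10 in place of 1. *Panct2* met the rule without WT replicate 2 or WT replicate 4, and did not without any 1 of the other 4 libraries. It overlaps *Slco4c1*, an organic anion transporter gene on the opposite strand, whose libraries overlapped between genotypes (log2 fold change 0.58, adjusted *P* = 0.716).

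*1700003E16Rik*, listed as protein coding, had a normalized count of 436, 503 and 556 in the *Irf1-/-* libraries and of 225, 211 and 217 in the WT libraries. The WT libraries were the most alike of any of the 10 transcripts, with a coefficient of variation of 3.2%. The log2 fold change was 1.19 (SE 0.18), with and without WT replicate 4. It overlaps *Wdr54* on the opposite strand, which did not pass the test (0.24, adjusted *P* = 0.761). *Rtkn*, on one side, had means of 2426 ± 80.8 and 1795 ± 167 (SD, n = 3 each) in *Irf1-/-* and WT libraries, with a limma adjusted *P* of 0.0355 at a log2 fold change of 0.44, below the size the rule asks for. *Dctn1*, the dynactin subunit gene on the other side, was at 0.04 (adjusted *P* = 0.924).

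*1810073O08Rik* is a lncRNA with a normalized count of 2747, 3231 and 4246 in the *Irf1-/-* libraries and of 1950, 1829 and 2110 in the WT libraries. *Irf1-/-* replicate 4 was the highest, and the coefficient of variation was 22.4% in *Irf1-/-* and 7.17% in WT libraries. The lowest *Irf1-/-* library was 1.30 times the highest WT library, the narrowest distance among the 10. On the log2 scale the fold change was 0.77 (SE 0.14), 0.83 without WT replicate 4, and between 0.60 and 0.92 over the fits with 1 library left out. Its nearest tested neighbours *C430042M11Rik* (0.25, adjusted *P* = 0.859) and *8430430B14Rik* (0.17, adjusted *P* = 0.768), also lncRNAs, did not pass the test.

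The neighbours as a group were 25 genes, the nearest tested gene on each side of each transcript and those that overlap it. Of these 3 were called (12%), *Gm12185*, *Rhobtb1* and *Kcna3*, all lower in *Irf1-/-* HSCs, and 22 were not, against 1.91% of all tested genes called. The nearest tested gene was not always the next gene, since genes that were not tested lay between the transcript and *Fbxo36* (8), *Gm30431* (8), *Macir* (6), *Tmem26* (6), *4930526L06Rik* (6), *Cdk1* (3), *8430430B14Rik* (3), *Ms4a15* (2) and *C430042M11Rik* (2). The median log2 fold change of the neighbours was −0.02, close to that of all tested genes (−0.003). *Gm12185*, an IRG gene next to *Gm5431*, was at 112, 106 and 68.5 in the *Irf1-/-* libraries and 1594, 1832 and 1550 in the WT libraries (log2 fold change −4.13, SE 0.21, adjusted *P* = 3.8e-08, limma), and the gene on the other side of *Gm5431*, *Irgm1*, was at −0.27 (adjusted *P* = 0.171). Without the intensity trend 1 neighbour, *Gm12185*, was called. For *AW112010* the nearest tested genes were *Ms4a15* (−0.15, adjusted *P* = 0.916) and *4930526L06Rik* (−0.88, adjusted *P* = 0.661), and for *Panct2* the genes beyond *Slco4c1* were *Gm30431* (0.31, adjusted *P* = 0.682) and *Macir* (−0.06, adjusted *P* = 0.926).

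The levels of different transcripts were compared per kilobase, over the joined exons of 9 of the 10 (not *1810073O08Rik*) in GENCODE vM1, which is not the annotation the authors counted with and holds *Panct2* under an older symbol. In WT HSCs *AW112010* led with 5377 normalized counts per kb over 774 bases, followed by *Gm12216* (284), *1700003E16Rik* (106), *9530082P21Rik* (71.3), *AI504432* (71.0), *A530040E14Rik* (59.0), *A930033H14Rik* (48.3), *Gm5431* (38.7) and *Panct2* (5.07). From *9530082P21Rik* to *Gm5431* each level overlapped the next in its libraries, and the other steps of this order were larger than the spread between libraries. In *Irf1-/-* HSCs *AW112010* was still first, at 684, and *1700003E16Rik* (243) stood above *Gm12216* (134). *Panct2*, the last in WT HSCs, was at 21.8 in *Irf1-/-* HSCs, above *A930033H14Rik* (12.4) and *Gm5431* (9.82), whose libraries did not reach the lowest *Panct2* value of 20.5.

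Of the 10 transcripts 9 belong to the class of transcripts with a provisional symbol (a number with Rik, Gm with a number, 1 or 2 capitals with 6 digits, or LOC with a number), and *Panct2* does not. In this class 1871 transcripts were tested and 20 were called (1.07%), 16 lower and 4 higher, whereas among the other 15533 genes 313 were called (2.02%), 150 lower and 163 higher. These counts include the 10 transcripts, which were chosen by their difference. Without them 13 of 1862 provisional transcripts were called (0.698%), 11 lower and 2 higher, and 312 of 15532 other genes (2.01%), 150 lower and 162 higher. Provisional transcripts were counted less deeply, with a median normalized count of 40.3 against 1198, and the SE of their log2 fold change was larger, with a median of 0.50 against 0.14. The medians of the log2 fold change were 0.03 and −0.01. Also without the 10, at a mean normalized count of 1000 or more limma called 4 of 135 provisional transcripts (2.96%) and 157 of 8251 other genes (1.9%), at a mean of 100 to 1000 it called 9 of 429 (2.1%) and 143 of 3248 (4.4%), and at a mean below 100 it called 0 of 1298 and 12 of 4033 (0.298%). The 20 calls were 33 without WT replicate 4 and 6 without the intensity trend.

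The 20 called included 13 outside the 10 described, 11 lower and 2 higher. The largest falls were those of *Gm12250*, which encodes the GTPase Irgb10 (log2 fold change −5.91, SE 0.31), *Gm12185*, *Gm4841* (−4.09), *F830016B08Rik* (−3.64) and *Gm4951* (−2.70). *Gm12250* was at 76.8, 94.2 and 30.1 in the *Irf1-/-* libraries and 3407, 4125 and 3535 in the WT libraries (adjusted *P* = 6.47e-08, limma). *Gm12250* and *Gm12185* lie on chromosome 11, as does *Irf1*, and *Gm4841*, *F830016B08Rik* and *Gm4951* lie on chromosome 18. *Gm5833* (1.34, adjusted *P* = 0.0227) and *I730030J21Rik* (0.67, adjusted *P* = 0.0136), both lncRNAs, were the 2 that rose. Both calls were lost without *Irf1-/-* replicate 4 or WT replicate 3, and that on *Gm5833* also without *Irf1-/-* replicate 2. By RefSeq type and without the 10, 6 of 1461 tested lncRNAs were called (0.411%), 3 lower and 3 higher, and 313 of 15619 protein-coding genes (2%), 152 lower and 161 higher.

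The family of *Gm5431* was described through a list of 26 interferon-inducible GTPases, of which 23 were tested. In *Irf1-/-* HSCs 17 of the 23 were called and each of these was lower, against 0.954% of all tested genes called lower. The median of the log2 fold change was −1.25 over the 23 and −0.003 over all tested genes. Without *Gm5431*, which was chosen by its difference, 16 of 22 were called, all lower, with a median of −1.20. This direction was known from earlier results of these data. The list may not hold every gene of these families, and other provisional transcripts were not searched for further members. The called IRG genes on this list were *Gm12250*, *Gm12185*, *Tgtp1* (−3.34), *Iigp1* (−2.72), *Gm5431*, *Ifi47* (−1.15), *Tgtp2* (−1.07), *Igtp* (−0.93) and *Irgm2* (−0.64). The called GBP genes on it were *Gbp10* (−4.72), *Gbp11* (−3.27), *Gbp4* (−2.83), *Gbp6* (−2.19), *Gbp8* (−1.52), *Gbp3* (−1.33), *Gbp2* (−1.25) and *Gbp9* (−0.71). With 1 library left out, *Gbp9* and *Gbp11* lost their call without *Irf1-/-* replicate 2, *Irf1-/-* replicate 3 or WT replicate 3, *Gbp9* also without WT replicate 4, and *Irgm2* without *Irf1-/-* replicate 4 or WT replicate 2. In the list of 53 named lncRNAs, 46 were tested and 1 was called, against 1.91% of all tested genes. It was *Meg3*, a maternally expressed transcript of the imprinted *Dlk1* locus, at 565, 312 and 712 in the *Irf1-/-* libraries and 226, 223 and 213 in the WT libraries (log2 fold change 1.18, SE 0.26, adjusted *P* = 0.0245, limma), and the median of the 46 was 0.04. This call was lost without *Irf1-/-* replicate 2, *Irf1-/-* replicate 4 or WT replicate 3.

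The genes nearest in profile to each transcript were found among all tested genes by the root mean square (RMS) difference of log2(normalized count + 1), centred on the mean over the 6 libraries. For *AW112010* they were *Aspa* (RMS difference 0.18), which encodes aspartoacylase, *Casp1* (0.21), the inflammatory caspase gene, and *Gm4951* (0.22). *Gm12216* was nearest to the lncRNA *BC064078* (0.09) and to *Psmb9* (0.11), an immunoproteasome subunit gene. *A530040E14Rik* was nearest to the IRG gene *Ifi47* (0.14), *AI504432* to the platelet glycoprotein gene *Gp1bb* (0.11), and *9530082P21Rik* to *Pnldc1* (0.09) and *BC064078* (0.10). *Gm5431* was nearest to *Ifit3b* (0.20), an interferon-induced gene, and *A930033H14Rik* to *Il17rc* (0.14). Of those that were higher, *Panct2* was nearest to *Ehd2* (0.14), *1700003E16Rik* to *Wnt6* (0.09), and *1810073O08Rik* to *Slc26a11* (0.08) and *Selp* (0.09), the P-selectin gene. Of the genes named here *Pnldc1* (18.2 to 60.2 normalized counts, adjusted *P* = 0.145) and *Wnt6* (7.53 to 23.3, adjusted *P* = 0.352) were not called, and *Wnt6* lay close to the filter. These profiles share libraries and the contrast that chose the 10.

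Promoter windows, 300 bases around the annotated start in RefSeq (GRCm38.p6), were found for 9 of the 10 (not *AI504432*). Both strands were searched for the IRF element GAAANNGAAA, which was in 3.44% of all 32851 windows. Of the 9 transcripts 1, *Gm12216*, held it. For comparison, 3.70% of 13682 tested genes with a window held the IRF element, as did 25.6% of 117 genes called lower and 4.10% of 122 called higher (25.9% of 112 and 4.20% of 119 without the 10). A match is a description of these letters and not a bound site.

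The window of *Gm12216* is shown because this transcript lies next to *Irf1* and alone among the 9 held the IRF element. It spans chr11:53859207-53859506 on the minus strand, and the capitals mark the IRF element, read here from its other strand. The element begins at base 3 of the transcript, just after the annotated start.
*Gm12216*: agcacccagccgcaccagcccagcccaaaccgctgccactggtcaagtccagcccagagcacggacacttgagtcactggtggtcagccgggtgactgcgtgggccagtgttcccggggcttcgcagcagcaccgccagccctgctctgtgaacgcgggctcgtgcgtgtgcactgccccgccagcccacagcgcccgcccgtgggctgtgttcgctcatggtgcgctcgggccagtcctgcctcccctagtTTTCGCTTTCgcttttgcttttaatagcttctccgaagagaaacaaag

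The window of *AW112010*, the transcript with the largest difference, spans chr19:11050517-11050816 on the minus strand and did not hold the element, which says only that these letters are not in these bases. Its GC content was 40%, the lowest of the 9 windows, against a median of 52.7% over all windows.
*AW112010*: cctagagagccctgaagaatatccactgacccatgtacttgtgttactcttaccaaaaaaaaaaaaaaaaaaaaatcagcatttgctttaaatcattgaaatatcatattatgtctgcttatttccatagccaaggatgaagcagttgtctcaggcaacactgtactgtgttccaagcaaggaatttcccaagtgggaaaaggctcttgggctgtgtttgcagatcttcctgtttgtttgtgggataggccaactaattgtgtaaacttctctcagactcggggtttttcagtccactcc

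The IRF elements of *Gm12216* and of *Gm12185* and *Gm12250*, the called provisional transcripts with the largest falls, are compared with 10 bases on each side. That of *Gm12185* (chr11:48927238-48927267, minus strand) begins 75 bases before the start, and those of *Gm12250* (chr11:58183742-58183771 and chr11:58183787-58183816, plus strand) begin 91 and 46 bases before it.
*Gm12216*: ctcccctagtTTTCGCTTTCgcttttgctt
*Gm12185*: tccaggaataGAAAGTGAAAcctactctga
*Gm12250*, farther from the start: cctcggtggcTTTCAGTTTCtatgcctaga
*Gm12250*, nearer to the start: agaaatctgcTTTCAGTTTCatgttcttgg
The window of *A930033H14Rik* had a GC content of 78.3%, the highest of the 9, and shares 195 bases with 1 of the 3 windows of *Rhobtb1* on the opposite strand.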

How the data were processed

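Paired-end reads of SMART-Seq v4 and Nextera XT libraries were trimmed (Trim Galore!), aligned (HISAT2) and assigned to genes (htseq-count) by the authors, who deposited a signal made from these counts, namely each count over the DESeq2 size factor of its library. The submitters' processing notes name build mm39. Program versions, annotation and strand setting are not given in the sources used here, so reads of overlapping or antisense genes cannot be told apart. Dividing each library's values by its smallest step gave whole numbers in 100% of cases (tolerance 0.001), so whole counts, called reads here, were recovered. Their totals exceed the depth per sample that the paper states, so a count need not stand for a single sequenced fragment.

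For genes that averaged 10 or more, log2(normalized count + 1) was compared between genotypes with limma 3.58.1 (R 4.3.3, empirical Bayes with a trend), with *P* values adjusted over 17404 genes by the Benjamini-Hochberg method. Fold changes are on this scale, which understates changes of low genes. The fit was tested on simulated data. On recovered reads edgeR 4.0.16 called 327 genes and DESeq2 1.42.0 called 510. Other alternatives were the pseudocount, the filter, the trend, quantile normalization, a replicate block and each library left out. Gene order and types came from RefSeq (GRCm38.p6, 17395 of the 17404 tested genes matched by symbol). The genes named are the 10 transcripts, *Irf1*, neighbours, genes nearest in profile, the 5 largest rises and falls among other called provisional transcripts whose libraries do not overlap between genotypes, and called genes of the marker, GTPase and lncRNA lists. *Lyrm7* and *Gm2a* and others outside this rule were named after their values were seen. The 10 transcripts and the lists were chosen with earlier results of these data known. Figures were drawn with matplotlib 3.10.9.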

Additional observations from a re-analysis of the deposited data

How the results depend on the processing

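The log2 fold changes of the 10 transcripts kept their sign under all 15 alternatives, and 149 of 150 values moved by less than 1 SD between replicates. The exception was *Panct2* with a pseudocount of 10 (1.68), the transcript with the fewest reads. Its WT libraries held as few as 14 reads. With 1 library left out in turn, the log2 fold change of *Panct2* ran from 1.946 to 2.276. That of *Gm5431* varied more, from −2.365 to −1.731.

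With 1 library left out in turn, 204 to 569 genes were called (83 to 304 higher and 105 to 265 lower), and 16 to 33 provisional transcripts, 6 to 9 of the 10 transcripts and 3 to 4 neighbours. The 4th neighbour was *Cdk1*, without WT replicate 4. Without limma's trend 40 genes were called (7 higher, 33 lower), 6 provisional transcripts, 3 of the 10 (*AW112010*, *Panct2* and *1700003E16Rik*) and 1 neighbour. DESeq2 called 510 genes, 299 of them higher, and all 10 transcripts. With quantile normalization 346 genes were called, and again all 10 transcripts. DESeq2 also tested genes below the filter, and the cause of the other shifts was not tested. Under the remaining alternatives, these counts stayed within 1.5 times their values.

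The replicate block gave 415 called genes and 9 of the 10 transcripts, with *AI504432* not called. The deviations of libraries with the same number had r = −0.094, 0.246 and 0.147 for replicates 2, 3 and 4, within the range of the pairs with unlike numbers (−0.326 to 0.251). *Irf1-/-* replicates 3 and 4 correlated best with the WT library of the same number (0.246 and 0.147), and *Irf1-/-* replicate 2 with WT replicate 4 (0.251). These values do not settle whether the numbers pair the mice, and the main fit used genotype alone.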

Other observations

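Outside the 10 transcripts, 6 further lncRNAs of the RefSeq table were called between genotypes. Lower in *Irf1-/-* HSCs were *Gm43305* (log2 fold change −1.19, SE 0.24), *BC064078* (−1.18, SE 0.17) and *Gt(ROSA)26Sor* (−0.60, SE 0.13), and higher were *Gm5833*, *Meg3* and *I730030J21Rik*. *BC064078* was at 305, 268 and 324 in the *Irf1-/-* libraries and 641, 630.0 and 770.3 in the WT libraries, and was called with each library left out, whereas *Gt(ROSA)26Sor* was called in 1 of those 6 fits, *Gm43305* in 2, *Meg3* and *Gm5833* in 3 each and *I730030J21Rik* in 4.

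Transcribed pseudogenes of the RefSeq table were called in 6 of 197 tested cases (3.05%), all 6 lower in *Irf1-/-* HSCs in limma, against 1.91% of all tested genes called and 0.954% called lower. They were *Gbp11*, *Gm9199* (−1.40), *Mx1* (−1.24), the antiviral dynamin-like GTPase gene, the class I histocompatibility genes *H2-Q5* (−0.79) and *H2-T10* (−0.62), and *Gm4759* (−0.64). With 1 library left out, *Gm9199* was called in 6 of 6 fits, *H2-Q5* in 4 (not without *Irf1-/-* replicate 3 or WT replicate 3), *Gm4759* in 4 (not without *Irf1-/-* replicate 4 or WT replicate 2), *Mx1* in 1 (without *Irf1-/-* replicate 3) and *H2-T10* in 1 (without WT replicate 2). Reads that they share with close relatives in the genome cannot be told apart. These genes were named after their values were seen.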
